A study of Mus musculus with 6 samples.

Results

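Collagen chains were followed in the urogenital ridge of mouse embryos with and without Wt1, the gene of a zinc finger transcription factor needed for gonad and kidney. All probes with a single gene symbol made only of Col, a number, the letter a and a number were taken, whatever their values. They came to 43 of 20289 probes on the array and stood for 37 of 13769 genes named by a single symbol, 6 of which had a pair of probes. By type, 11 genes encode fibrillar chains, 8 encode basement membrane chains (type IV and the related types XV and XVIII) and 18 encode other chains. The 7 chains Col6a2, Col6a6, Col8a2, Col12a1, Col20a1, Col22a1 and Col28a1 had no probe by this rule and were not analysed here.

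Wild-type Mf1 embryos were set against Mf1 embryos homozygous for a deletion of Wt1, both at E11.5 with 11 to 12 tail somites, a stage before the gonads of the sexes diverge. Each genotype was represented by 3 single-colour CodeLink arrays, 6 in all, and each array by urogenital ridges pooled from 5 embryos, 4 female and 1 male. The series description can be read as 1 pool per genotype measured repeatedly, and the labels name no separate pools, so p-values measure only the spread between arrays, which may be technical. The ridge is a mixture of coelomic epithelium, gonadal primordium, mesonephros and mesenchyme with vessels, and in such bulk RNA fewer cells of a type cannot be told apart from less RNA per cell.

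Collagens are secreted proteins in which 3 chains wind into a helix, built from short repeats that begin with glycine. Fibrillar chains (types I, II, III, V, XI, XXIV and XXVII) form the banded fibres of connective tissue. Type IV chains form the sheet-like network of basement membranes, on which epithelia, vessels and mesonephric tubules rest. Other chains decorate fibres (the FACIT group, such as types IX and XVI), form fine beaded filaments (type VI), anchor epithelia (type VII) or cross the cell membrane (types XIII, XVII, XXIII and XXV). Chains are hydroxylated and folded in the endoplasmic reticulum, trimmed outside the cell and cross-linked by lysyl oxidases.

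Promoter windows from RefSeq (GRCm38.p6), 250 bases before to 50 bases after each annotated start, were matched for 30 of the 37 genes, in 32 windows. Those without one were Col1a1, Col2a1, Col4a3, Col5a2, Col9a3, Col14a1 and Col26a1. The upstream bases of 3 fibrillar chains are shown because these chains differ in the knockout: Col1a2 fell, Col3a1 did not pass the test and Col5a3 rose. The result for Col3a1 depended on the scaling, since it was called lower after quantile and cyclic loess normalization. Capitals mark motifs that lie wholly within the stretch, each on either strand. They are CCAAT, the box bound by NF-Y, TATAAA, the sequence of the TATA box, and GGGCGG, the GC box bound by Sp1. Motifs were matched by sequence at any position, so the TATAAA of Col3a1, at position -117, need not act as a TATA box. The stretches run from 150 bases before the start to the base before it, 5′ to 3′ on the gene's strand, at chr6:4505468-4505617 (plus strand), chr1:45311388-45311537 (plus) and chr9:20815068-20815217 (minus).
Col1a2: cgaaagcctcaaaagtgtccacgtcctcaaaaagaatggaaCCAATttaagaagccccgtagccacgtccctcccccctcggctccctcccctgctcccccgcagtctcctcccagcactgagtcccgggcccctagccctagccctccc
Col3a1: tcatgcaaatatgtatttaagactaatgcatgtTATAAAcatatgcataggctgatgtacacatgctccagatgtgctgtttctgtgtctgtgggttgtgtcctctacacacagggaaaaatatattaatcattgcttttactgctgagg
Col5a3: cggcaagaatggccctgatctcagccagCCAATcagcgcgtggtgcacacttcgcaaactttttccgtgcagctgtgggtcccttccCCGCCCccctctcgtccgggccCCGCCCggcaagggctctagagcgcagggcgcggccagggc

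The Col4a1 and Col4a2 genes are neighbours on chromosome 8 that run in opposite directions. Their annotated starts lay 21 bases apart and their promoter windows shared 78 bases. Each window held 1 CCAAT box, shown in capitals within 30 bases, at chr8:11312954-11312983 (minus strand, with the box in reverse) and at chr8:11312761-11312790 (plus strand).
Col4a1: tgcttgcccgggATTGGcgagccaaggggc
Col4a2: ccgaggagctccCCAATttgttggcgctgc

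Motif content is a description of these windows and says nothing about factor binding. Among the 32 collagen windows, 13 held CCAAT (40.6%, against 37.4% of all 32851 windows) and 19 held GGGCGG (59.4% against 35.7%). TATAAA was in 5 (15.6% against 13.6%). GCGGGGGCG, the site of the Egr factors that Wt1 can also bind, was in 1, that of Col8a1 (3.13% against 2.91%). Motifs were searched on both strands, at any position in the window, and may overlap each other. Of the 7 windows of genes that fell, 4 held CCAAT (Col1a2, Col4a1, Col4a2 and Col7a1), as did 3 of the 8 windows of genes that rose (Col25a1, Col5a3 and Col9a1).

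As a check of the labels, Wt1 itself had intensities of 44.1, 43.6 and 39.1 in wild type and 14.3, 15.7 and 14.2 in the knockout, with the position of the probe relative to the deletion unknown. Across all 15062 probes bright enough to be tested, 41.3% passed an adjusted p of 0.05 (limma's moderated test, Benjamini-Hochberg over all tested probes), 24.1% as higher and 17.2% as lower in the knockout. Calls that also reached 2-fold made up 4.69% of the tested probes, with 1.57% higher and 3.12% lower. The median log2 change was 0.09.

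Collagen genes went both ways in the knockout. Of the 37 genes, 34 were bright enough to be tested, each on its brighter probe, and of these 8 fell, 8 rose and 18 did not pass. The split moved with the scaling, to 9 lower and 7 higher after quantile normalization and 11 lower and 7 higher after cyclic loess. That share of called genes, 47.1%, is close to the 41.3% of all probes, so the number of collagen genes called is not a feature of this family. Among the called genes, Col1a1 alone fell and Col25a1 alone rose by 2-fold or more. Calls of that size in either direction made up 4.69% of all tested probes. The log2 change of Col19a1 was larger, at 1.08, but it did not pass the test. The median log2 change of the 34 genes was -0.02. By probe, 10 of 38 tested probes rose and 8 fell. Wild-type and knockout arrays were fully apart for 21 of the 34 genes, 11 higher and 10 lower, against 52.8% of all tested probes with 6 values (31.4% higher and 21.4% lower).

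Counts by class are descriptions, and the difference between classes was not tested. Over all tested probes, 17.2% fell and 24.1% rose. Of the 11 fibrillar genes, 2 fell and 3 rose, with a median log2 change of -0.02 and a range from -2.08 to 0.83. After quantile or cyclic loess normalization the fibrillar balance turned to 4 lower and 2 higher. Of the 6 tested basement membrane genes, 3 fell and none rose in limma's test, with a median of -0.43. At an unadjusted p under 0.05, 1 was higher and 3 were lower. Of the 17 other tested genes, 3 fell and 5 rose, with a median of 0.10.

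**Figure D1:**
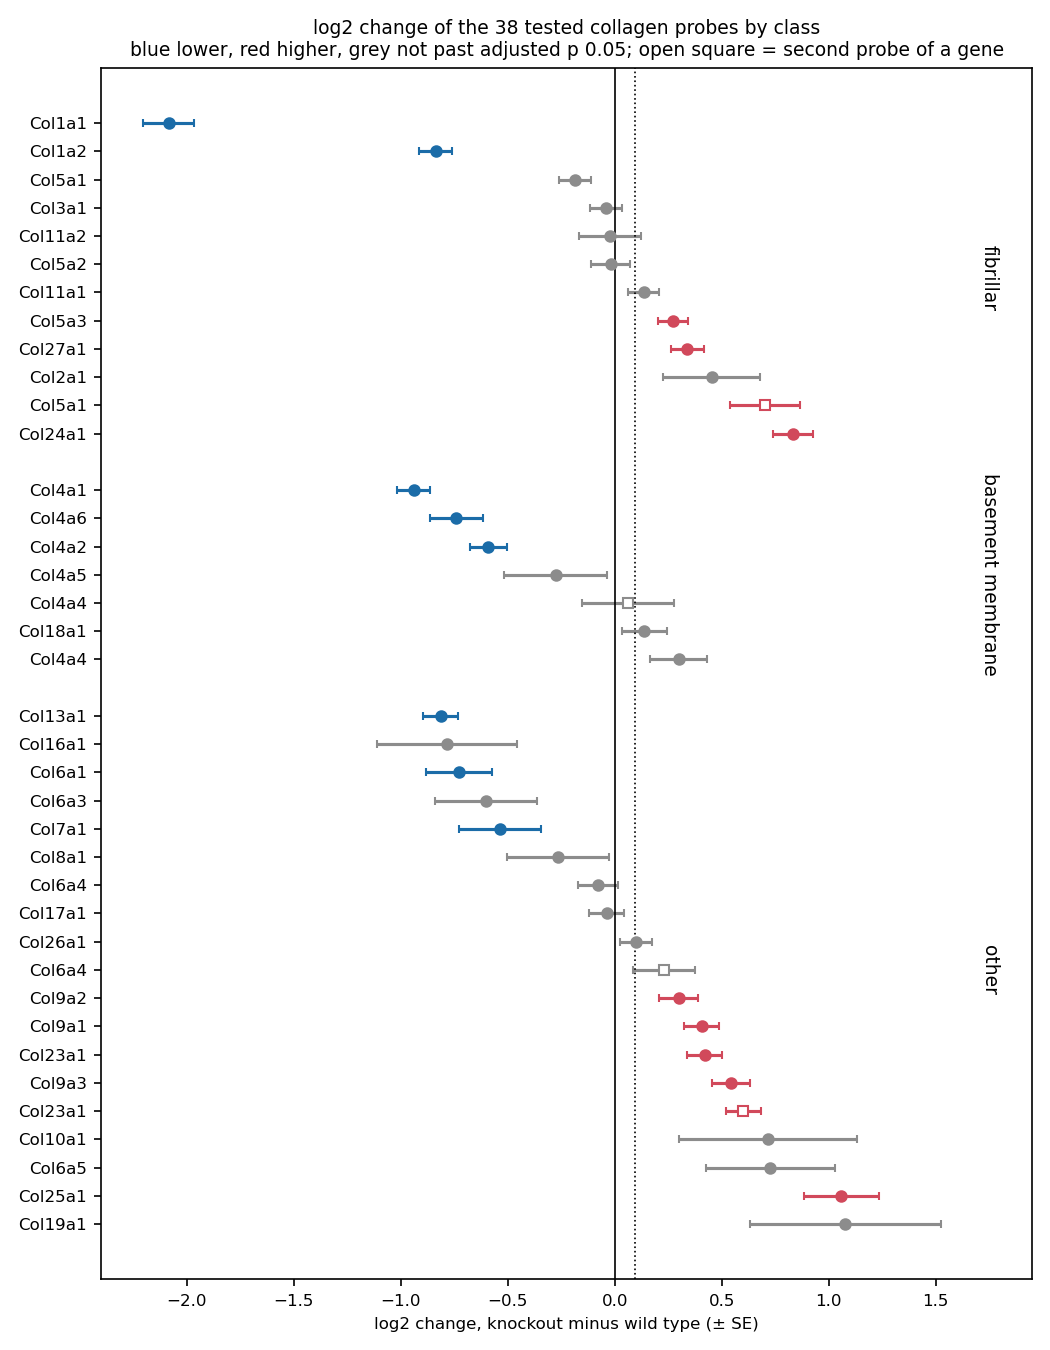
log2 change (knockout minus wild type, horizontal axis) ± SE of the 38 tested collagen probes, grouped by class, from 3 arrays per genotype. Blue probes fell, red probes rose and grey probes did not pass an adjusted p of 0.05; an open square is the dimmer probe of a gene and the dotted line is the median of all tested probes, 0.09. Col1a1 stands lowest at -2.08, and the 3 basement membrane probes that passed, Col4a1, Col4a6 and Col4a2, all lie below 0.

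Type I collagen is the main fibre-forming collagen of connective tissue, made of chains from Col1a1 and Col1a2. Col1a1 had deposited intensities of 2.49, 2.23 and 2.26 on the wild-type arrays and 0.501, 0.551 and 0.595 on the knockout arrays. Every knockout array lay far below every wild-type array. The means were 2.33 ± 0.142 and 0.549 ± 0.0467 (SD, n = 3 each), so that 23.6% of the wild-type signal remained (log2 change -2.08 ± 0.12, SE, limma adjusted p = 2.92e-07). Col1a2 had 8.95, 9.64 and 8.33 in wild type and 5.06, 4.93 and 5.04 in the knockout. Its groups did not overlap either, and the fall was smaller, to 55.9% of wild type (log2 change -0.84 ± 0.08, adjusted p = 9.17e-06).

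Types III and V form fibres together with type I. Col3a1, the single chain of type III, had intensities of 196, 193 and 194 in wild type and 182, 200 and 185 in the knockout. The groups overlapped, with a log2 change of -0.04 ± 0.07 (adjusted p = 0.683). This result depended on the scaling: Col3a1 was called lower after quantile normalization (log2 change -0.44, adjusted p = 0.000263) and after cyclic loess (-0.39, adjusted p = 0.000408). Col5a2, a type V chain and the neighbour of Col3a1 on chromosome 1, had 24.3, 22.7 and 23.3 in wild type and 20.2, 25.8 and 23.8 in the knockout. These groups overlapped as well (log2 change -0.02 ± 0.09, adjusted p = 0.880).

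Col5a1, the type V chain that starts fibre assembly, gave unlike answers on its probes. On the brighter probe the intensities were 10.9, 10.7 and 9.99 in wild type and 8.73, 9.43 and 9.59 in the knockout, a log2 change of -0.19 ± 0.07 (adjusted p = 0.0651). It was called lower after quantile normalization (-0.22, adjusted p = 0.0178) and cyclic loess (-0.25, adjusted p = 0.00978). On the dimmer probe the intensities went the other way, from 0.622, 0.504 and 0.527 to 0.919, 0.990 and 0.782, a log2 change of 0.70 ± 0.17 (adjusted p = 0.00506). With the probes averaged, the change was 0.26 (adjusted p = 0.0397), so no direction can be given for Col5a1.

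The fibrillar genes that rose were Col5a3, Col24a1 and Col27a1. Col24a1, a fibrillar chain known from developing bone, had 1.37, 1.36 and 1.51 in wild type and 2.41, 2.44 and 2.68 in the knockout. The groups were apart, with 178% of the wild-type signal in the knockout (log2 change 0.83 ± 0.10, adjusted p = 3.99e-05). Col27a1, a fibrillar chain known from cartilage, had 31.5, 32.5 and 30.5 in wild type and 36.5, 40.9 and 42.4 in the knockout (log2 change 0.34 ± 0.08, adjusted p = 0.00392). Its call was lost after quantile normalization (0.13, adjusted p = 0.120) and cyclic loess (0.15, adjusted p = 0.0746). Col5a3, the third type V chain, had 12.2, 12.0 and 11.6 against 14.3, 14 and 14.8 (log2 change 0.27 ± 0.07, adjusted p = 0.00737), without overlap.

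The chains of types II and XI did not pass. Col2a1, the main collagen of cartilage and the notochord sheath, had 0.427, 0.370 and 0.483 in wild type and 0.693, 0.611 and 0.462 in the knockout (log2 change 0.45 ± 0.23, adjusted p = 0.129). The lowest knockout array lay among the wild-type arrays. Col11a1, a type XI chain, had 28.2, 28.1 and 25.1 against 30.5, 29.3 and 29.5, so its arrays were apart although the change of 0.14 ± 0.07 missed the threshold (adjusted p = 0.157) and turned to -0.05 after quantile normalization and -0.03 after cyclic loess. Col11a2 had a log2 change of -0.02 ± 0.14 (adjusted p = 0.916).

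Type IV chains of basement membranes fell as far as they were called, with 3 of 5 tested genes lower, against 17.2% of all tested probes. Col4a1 and Col4a2 encode the chains of the most widespread type IV network. Col4a1 had 9.10, 10.2 and 10.3 in wild type and 4.91, 5.19 and 5.32 in the knockout. The groups were far apart, with 52.1% of the wild-type signal remaining (log2 change -0.94 ± 0.08, adjusted p = 4.71e-06). Col4a2 had 5.95, 6.44 and 6.24 against 3.72, 4.27 and 4.41, or 66.5% remaining (log2 change -0.59 ± 0.09, adjusted p = 0.000207). Both calls held under all 15 alternatives of the processing.

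Col4a5 and Col4a6 are also neighbours, on the X chromosome, with annotated starts 1343 bases apart and opposite directions. Col4a6, a chain of basement membranes around epithelia and smooth muscle, fell from 1.96, 1.73 and 1.70 to 1.10, 1.22 and 0.926 (log2 change -0.74 ± 0.12, adjusted p = 0.000589). Col4a5 had 0.602, 0.669 and 0.395 in wild type and 0.476, 0.468 and 0.402 in the knockout. Those groups overlapped and the log2 change was -0.28 ± 0.24 (adjusted p = 0.382). Col4a4, a chain of the mature glomerular basement membrane, had 0.930, 1.06 and 0.912 against 1.29, 1.02 and 1.27 on its brighter probe (0.30 ± 0.13, adjusted p = 0.0935), and 0.06 ± 0.21 on the dimmer one. Without knockout array 2 its brighter probe passed as higher (adjusted p = 0.0278).

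Of the multiplexins, types XV and XVIII, only Col18a1 was bright enough to be tested, and it did not pass. Col18a1, the precursor of endostatin, had 31.4, 26.6 and 25.1 in wild type and 27.2, 34.8 and 29.7 in the knockout. The groups overlapped (log2 change 0.14 ± 0.11, adjusted p = 0.317), and the change turned to -0.06 after quantile normalization and -0.03 after cyclic loess. Without knockout array 1 it passed as higher (0.22, adjusted p = 0.0488). Col15a1 was too dim to be tested, with 0.00814 to 0.165 in wild type and 0.0717 to 0.321 in the knockout. Col4a3 was likewise untested, at 0.0162 to 0.230 and 0.182 to 0.262.

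**Figure D2:**
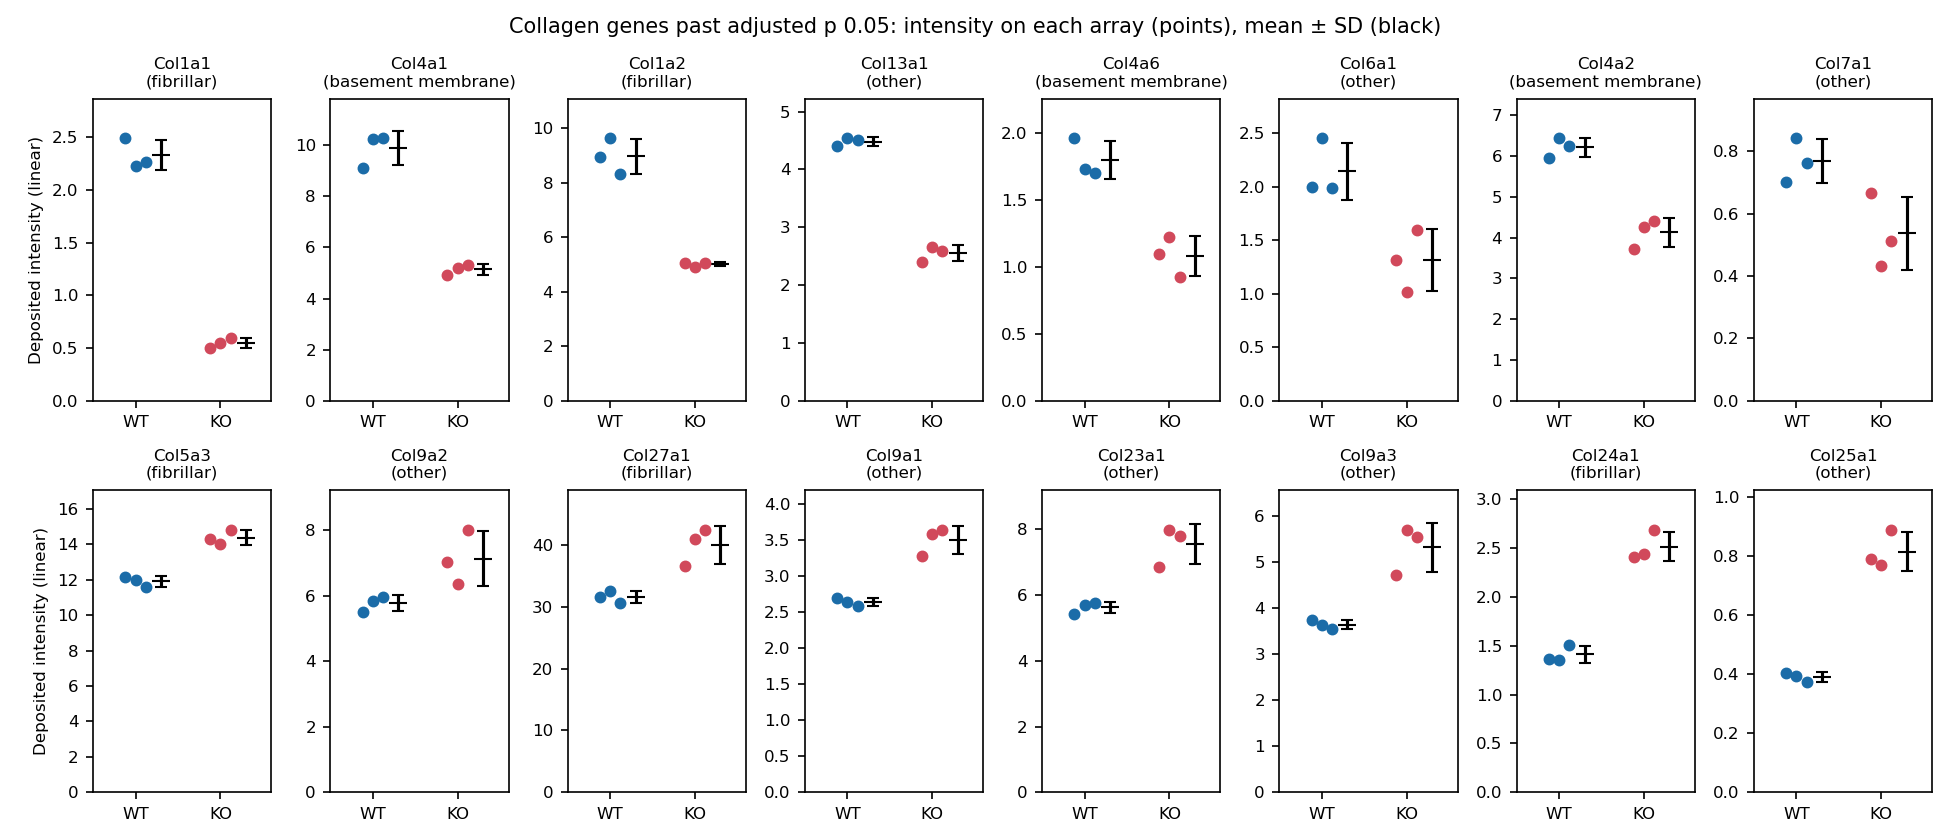
Deposited intensity (vertical axis, linear, from 0, scaled per gene) of the 16 collagen genes called in limma's test, on each wild-type (WT, blue) and knockout (KO, red) array, with the mean ± SD of 3 arrays in black, ordered from the largest fall to the largest rise. In each of the 16 genes the points of the genotypes do not overlap, with the widest gap relative to its level for Col1a1, from a mean of 2.33 to 0.549, and the narrowest relative gap for Col7a1.

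Type IX collagen, a FACIT that coats type II fibres in cartilage, rose on all 3 of its chains, where 24.1% of all tested probes rose. Col9a1 went from 2.70, 2.65 and 2.58 to 3.28, 3.58 and 3.64 (log2 change 0.41 ± 0.08, adjusted p = 0.00201). Col9a3 went from 3.74, 3.62 and 3.54 to 4.72, 5.70 and 5.53 (0.54 ± 0.09, adjusted p = 0.000481). Col9a2 went from 5.51, 5.86 and 5.98 to 7.02, 6.36 and 8.02 (0.30 ± 0.09, adjusted p = 0.0218), again without overlap, and its call ended without wild-type array 1 or 2 or knockout array 3, with adjusted p up to 0.10 over all alternatives, and also with no trend in limma's variance prior. The direction of the 3 chains was the same after quantile and cyclic loess normalization.

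Sclerotome and cartilage markers, genes of the vertebral precursors next to the ridge, are given beside type IX. Of 14 listed markers 12 had a probe and 9 were tested, and 6 rose and none fell (at an unadjusted p under 0.05 also 6 and none). Among all tested probes 24.1% rose and 17.2% fell. Pax9, a sclerotome regulator, was at least 2.51-fold higher against the brightness limit. Its wild-type mean lay below that limit and it passed the filter through its knockout values, so it could not have been called lower. Hapln1, a cartilage link protein gene, rose by 0.76 on the log2 scale. Sox5 rose by 0.60 on its brighter probe, a call lost with its probes averaged. The summed marker signal ran from 56.4 to 62.5 in wild type and from 69.9 to 81.3 in the knockout. Most of it came from Foxc2, which is also expressed in other mesenchyme. The counts and sums of the marker lists, here and below, were not repeated under the alternatives of the processing. The defining cartilage genes Sox9, Matn1 and Snorc lay below the brightness limit in both genotypes, and 3 tested markers did not pass. These were Acan, the aggrecan gene (log2 change -0.67, adjusted p = 0.244), Sox6 (-0.32, adjusted p = 0.325) and Matn3 (0.31, adjusted p = 0.375). The part of these cells in the higher type IX signal was not tested.

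Of the notochord markers, which could accompany type II and IX collagen, 4 of 6 had a probe. Shh lay below the limit in both genotypes, Krt8 fell and Krt18 did not pass. Krt8 and Krt18, the only notochord markers tested, also stand in the list of mesothelium and coelomic epithelium markers. Foxa2 was too dim to be tested, but its mean was 0.118 in wild type and 0.317 in the knockout, with the arrays apart and at least 1.45-fold higher against the brightness limit. The summed signal was 28.6 to 29.6 in wild type and 29.3 to 29.8 in the knockout, most of it from Krt18 (27.2 and 28.5). The other FACIT genes did not pass. Col16a1 had 0.453, 0.570 and 0.510 in wild type and 0.235, 0.221 and 0.497 in the knockout, where the third knockout array stood with the wild type (log2 change -0.78 ± 0.33, adjusted p = 0.0763). Without that array it passed as lower (log2 change -1.16, adjusted p = 0.00819), as it did after cyclic loess (-0.93, adjusted p = 0.0463). Col19a1 had 0.183, 0.157 and 0.186 against 0.303, 0.689 and 0.241 on its brighter probe (1.08 ± 0.45, adjusted p = 0.0737), its second probe was not tested, and without knockout array 3 it passed as higher (adjusted p = 0.0332). Col14a1 was not tested, at 0.0477 to 0.260 in wild type and 0.0769 to 0.170 in the knockout.

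Type VI collagen builds beaded filaments near cells, from an alpha 1, an alpha 2 and a longer chain. Col6a1 fell from 2.0, 2.45 and 1.99 to 1.32, 1.02 and 1.6, without overlap (log2 change -0.73 ± 0.15, adjusted p = 0.00268). Col6a3, the long chain, had 2.31, 2.34 and 2.49 in wild type and 2.56, 1.05 and 1.43 in the knockout. The first knockout array stood with the wild type and the other two far below it (log2 change -0.60 ± 0.24, adjusted p = 0.0630), and without that array the gene passed as lower (-0.96, adjusted p = 5.27e-06). Col6a5, an alternative long chain, had 0.290, 0.324 and 0.262 against 0.478, 0.683 and 0.342 (0.73 ± 0.30, adjusted p = 0.0739), and it passed as higher without knockout array 3 (adjusted p = 0.0222). The related Col6a4 did not pass on either probe (-0.08 ± 0.09 and 0.23 ± 0.15), and probes of these similar chains may not separate them.

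Of the membrane-spanning chains, Col13a1, found at adhesion sites and neuromuscular junctions, fell from 4.40, 4.54 and 4.51 to 2.40, 2.66 and 2.59. The groups were far apart, with 56.9% of the wild-type signal remaining (log2 change -0.81 ± 0.08, adjusted p = 1.38e-05). Col25a1, known from neurons and developing muscle, rose from 0.404, 0.395 and 0.373 to 0.788, 0.768 and 0.889 (1.06 ± 0.18, adjusted p = 0.000558), to 209% of wild type. Its second probe, at 0.0593 to 0.205 in wild type and 0.152 to 0.469 in the knockout, was not tested. Col23a1 rose on both probes, from 5.43, 5.68 and 5.76 to 6.85, 7.98 and 7.79 on the brighter (0.42 ± 0.08, adjusted p = 0.00151) and by 0.60 ± 0.08 on the other (adjusted p = 0.000113). Col17a1, the hemidesmosome collagen of skin, had 2.69, 2.89 and 2.63 against 2.65, 2.63 and 2.72, with overlap (-0.04 ± 0.08, adjusted p = 0.743).

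Markers of neurons, and some of muscle, rose in the knockout ridges. Over the whole array, 24.1% of tested probes rose and 17.2% fell. All 7 tested neuronal markers of 8 listed rose, with a summed signal of 23.6 to 24.5 in wild type and 57.0 to 58.9 in the knockout and none below the limit in both genotypes. The brightest were Isl1 (means 7.98 in wild type and 15.1 in the knockout) and Sox10 (5.84 and 13.5), which marks neural crest and glia, so the sum is not of neurons alone. The largest log2 changes were those of Tubb3 and Dcx (1.73 each) and Elavl3 (1.45). Dcx did not pass on its other probe, and its log2 change over the alternatives was 0.85 at its smallest. Of 11 listed markers of skeletal muscle and dermomyotome 8 were tested, and 6 rose and none fell (limma; at an unadjusted p under 0.05, 6 higher and 1 lower), with sums of 53.5 to 56.0 and 60.8 to 67.1 and the largest log2 changes in Tnnc2 (4.28), Myh3 (2.86) and Dmrt2 (2.66). The brightest of the list did not pass and had lower means in the knockout, 39.5 against 35.2 for Actc1, with the arrays apart, and 12.8 against 11.8 for Pax3. Myog, which marks differentiating muscle, lay below the limit in both genotypes. The part of these cells in the higher Col25a1 and Col23a1 signal was not tested.

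Of the remaining chains, Col7a1, which anchors skin epithelium, had 0.70, 0.841 and 0.763 in wild type and 0.665, 0.433 and 0.512 in the knockout (log2 change -0.54 ± 0.19, adjusted p = 0.0432). The groups only just separated, and the call was lost in 9 of 14 alternatives, among them without any 1 of wild-type arrays 1 to 3 or knockout arrays 2 and 3, with adjusted p up to 0.160. Col8a1, a network chain of vessel walls, had 0.960, 0.876 and 0.721 against 0.955, 0.463 and 0.788 (-0.27 ± 0.24, adjusted p = 0.398). Col10a1, of hypertrophic cartilage, had 0.350, 0.137 and 0.185 against 0.366, 0.365 and 0.294 (0.72 ± 0.42, adjusted p = 0.191), with a wild-type mean below the brightness limit. Col26a1, first described in testis and ovary, had 8.15, 8.27 and 8.33 against 8.26, 9.18 and 9.10 (0.10 ± 0.07, adjusted p = 0.300). These 3 genes overlapped between genotypes.

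Whether chains that assemble into 1 molecule changed by the same amount could not be decided by a test with this number of arrays, so their ratios are described. The log2 ratio of the brighter probes of both chains was taken on each array for 8 such pairs. Its own level has no meaning between probes, and only its change does. With 3 arrays against 3 the exact permutation test (two-sided) cannot go below p = 0.10, which becomes 0.267 after Benjamini-Hochberg adjustment over the 8 pairs, so no pair could pass. For Col1a1 over Col1a2 the ratio was -1.85, -2.11 and -1.88 in wild type and -3.34, -3.16 and -3.08 in the knockout, a change of -1.25 without overlap (exact p = 0.10). In this processing the signal of Col1a1 relative to that of its partner on the same arrays was thus 2.37-fold lower in the knockout. Over the alternatives the log2 change of Col1a1 ran from -2.14 to -1.43 and that of Col1a2 from -0.89 to -0.78. The ratio itself was not taken under every alternative.

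For Col4a1 over Col4a2 the ratio went from 0.61, 0.67 and 0.72 to 0.40, 0.28 and 0.27, a change of -0.35 without overlap (exact p = 0.10). For Col9a1 over Col9a3 the change was -0.14, also without overlap (exact p = 0.10). The ratios of the 5 other pairs overlapped between genotypes. Their changes were -0.17 for Col5a1 over Col5a2 and 0.46 for Col4a5 over Col4a6 (exact p = 0.20 each), 0.11 for Col9a1 over Col9a2 and 0.16 for Col11a1 over Col11a2 (0.40 each), and -0.13 for Col6a1 over Col6a3 (0.90). Overlap at this number of arrays does not show that partners changed alike.

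**Figure D3:**
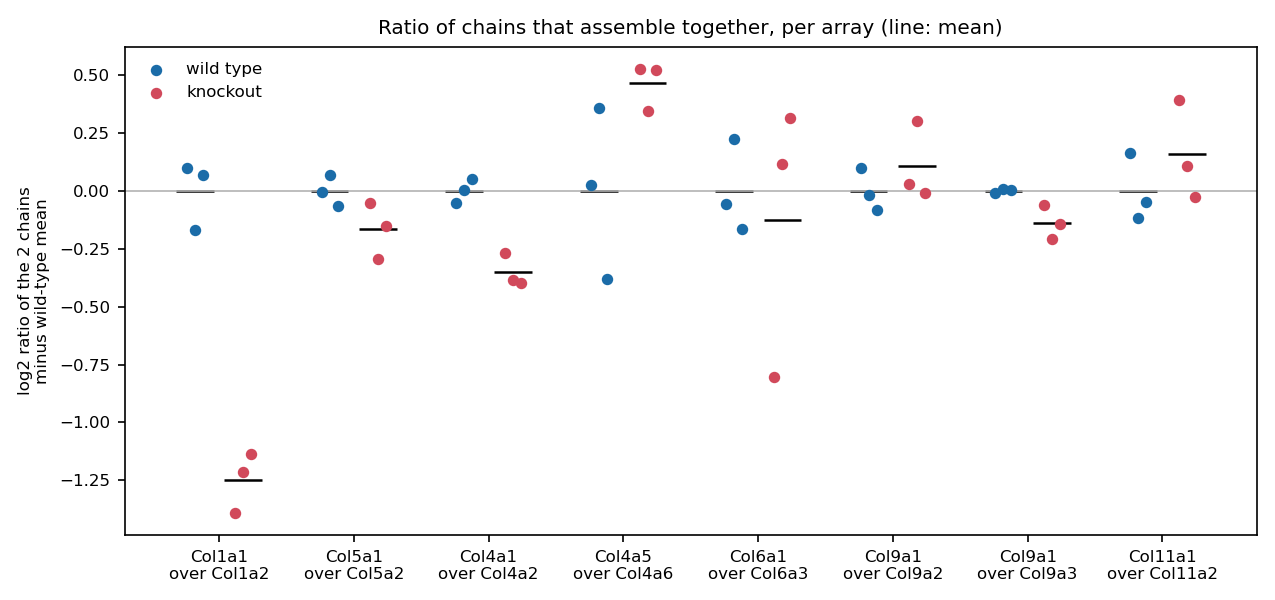
log2 ratio of chains that assemble together (vertical axis, relative to the wild-type mean of each pair) on each wild-type (blue) and knockout (red) array, with black lines at the means of 3 arrays. The 3 knockout points of Col1a1 over Col1a2 lie about their mean change of -1.25, and those of Col4a1 over Col4a2 about -0.35, below all wild-type points of the same pair.

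Enzymes that modify collagen lysines and prolines went in both directions. Of 15 listed genes 12 were tested, of which 6 rose and 4 fell, with a median log2 change of 0.27. The shares over all tested probes were 24.1% higher and 17.2% lower. Plod2, which hydroxylates lysines in the telopeptides used for cross-links, had 2.10, 2.24 and 2.23 in wild type and 1.03, 0.815 and 1.02 in the knockout. It fell 2.30-fold (log2 change -1.20 ± 0.12, adjusted p = 1.26e-05), with the groups far apart. Plod1, which hydroxylates lysines in the helix, fell 1.86-fold on its brighter probe (adjusted p = 0.00243) while its other probe did not pass. P3h2, a prolyl 3-hydroxylase that acts on type IV collagen, fell from 1.2, 1.29 and 1.02 to 0.845, 0.804 and 0.528 (log2 change -0.71 ± 0.18, adjusted p = 0.00858).

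P4ha1, the catalytic subunit of the main prolyl 4-hydroxylase, rose from 7.24, 7.57 and 7.60 to a knockout mean of 10.8 ± 0.662 (SD, n = 3), with every knockout array higher (log2 change 0.53 ± 0.07, adjusted p = 0.000167). The other genes of this list that passed were chosen for mention after their values were seen. P3h1 and P3h3, prolyl 3-hydroxylase family genes, rose by 0.42 and 0.51 on the log2 scale. Plod3 (0.32), P4hb (0.27) and Colgalt1 (0.26) also rose, but their calls were lost after quantile and cyclic loess normalization, which left 3 higher genes in the list. Ppib, a prolyl isomerase, fell by 0.34 with overlapping arrays (adjusted p = 0.0487), and lost its call in 8 of 15 alternatives.

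Of 10 listed genes for collagen folding and export, 6 were tested, of which 3 fell and none rose (limma; at an unadjusted p under 0.05, 4 lower and none higher), with a median log2 change of -0.24. Among all tested probes 17.2% fell and 24.1% rose. Sparc, a secreted collagen-binding protein gene, fell from 114, 133 and 120 to 92.1, 97.2 and 99.9 (-0.34 ± 0.08, adjusted p = 0.00494). Serpinh1, the collagen chaperone HSP47, fell from 13.6, 14.2 and 16.7 to 12.1, 11.3 and 12.4 (-0.31 ± 0.09, adjusted p = 0.0135), a call that ended without wild-type array 3. Fkbp7, a prolyl isomerase gene, fell by 0.29 ± 0.07 (adjusted p = 0.00384). In each of the 3 the genotypes were apart.

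Of 14 listed genes for processing and cross-linking, 7 were tested, with 1 lower, 1 higher and a median log2 change of 0.03. Beside this list and the receptors stand the shares of all tested probes, 17.2% lower and 24.1% higher. Loxl1, a lysyl oxidase, fell from 29.3, 29.6 and 30.8 to 20.4, 21.2 and 19.6, far apart (-0.55 ± 0.07, adjusted p = 6.92e-05). Tll1, a procollagen C-proteinase, rose from 2.40, 2.32 and 2.51 to 2.87, 3.25 and 2.75 (0.29 ± 0.09, adjusted p = 0.0231), a call lost without wild-type array 1 or 2 or knockout array 2. Of 10 listed collagen receptors 4 were tested, with 1 lower, 1 higher and a median of 0.10. Ddr1, the collagen-binding receptor kinase of epithelia, fell from 2.15, 2.12 and 2.15 to 1.46, 1.29 and 1.22 (-0.70 ± 0.10, adjusted p = 0.000197). Itga10, the cartilage collagen integrin subunit, rose from 0.334, 0.350 and 0.381 to 0.605, 0.537 and 0.537 (0.66 ± 0.22, adjusted p = 0.0283), a call lost without any 1 of wild-type arrays 1 to 3 or knockout array 1, after cyclic loess and with the replicate block. Itgb1 did not pass on the brighter probe, and its other probe was lower.

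**Figure D4:**
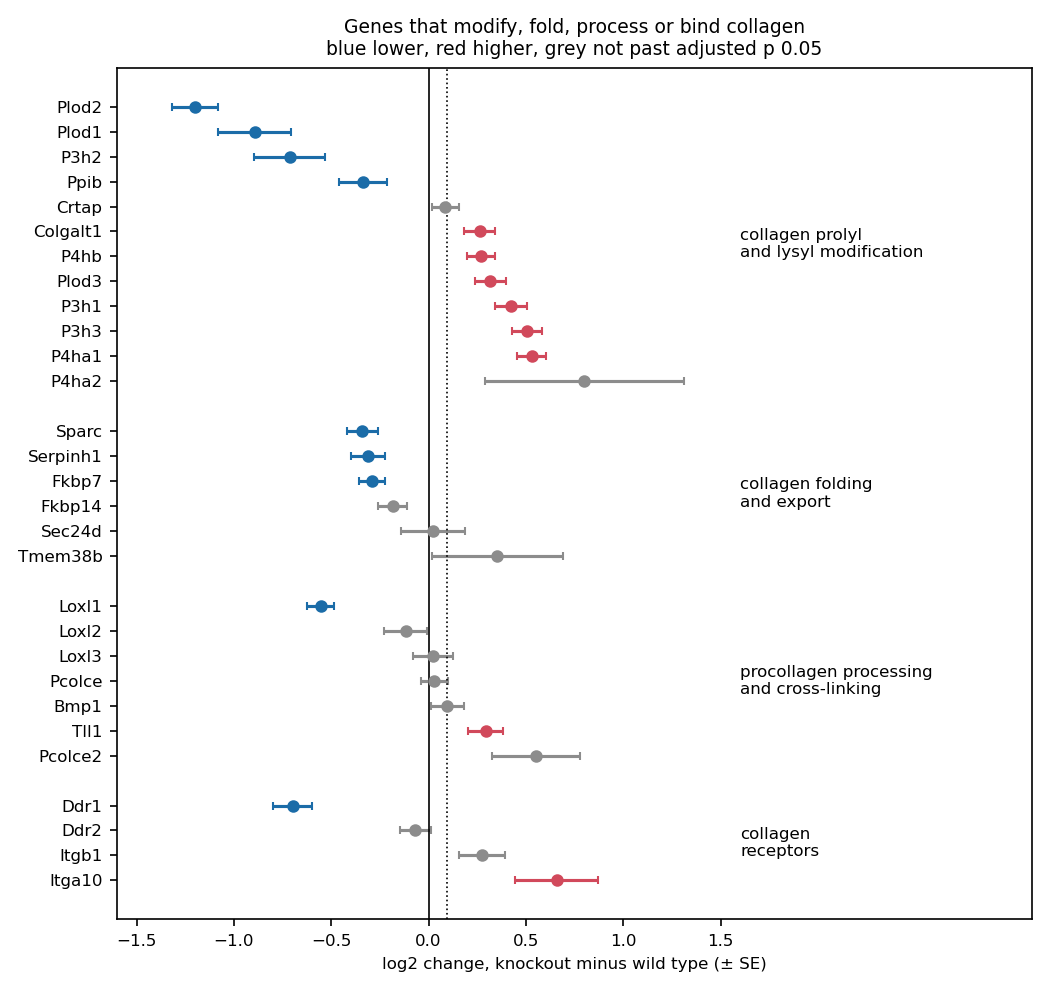
log2 change (knockout minus wild type, horizontal axis) ± SE of the tested genes that modify, fold, process or bind collagen, from 3 arrays per genotype. Blue genes fell, red genes rose and grey genes did not pass an adjusted p of 0.05, with the median of all tested probes (0.09) dotted; Plod2 is the lowest at -1.20, and all 3 called genes of the folding and export list lie below 0.

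Markers of cells that make fibrillar and basement membrane collagen are given beside the chains that fell. Over all tested probes, 17.2% fell and 24.1% rose. Of 10 interstitial mesenchyme markers, all tested, 3 rose and 2 fell, with sums of 349 to 357 in wild type and 395 to 435 in the knockout. Pdgfra (log2 change 0.66), Osr1 (0.63) and Tcf21 (0.38) rose. Most of the rise in the sum came from Pdgfra, with means of 82.3 in wild type and 130 in the knockout. Pdgfra lost its call with its probes averaged (0.41, limma adjusted p = 0.135). Lum fell by 0.31 (limma adjusted p = 0.0199), with the arrays apart. Nr2f2, the brightest of the list, did not pass on its brighter probe, and its other probe was lower. Foxd1 (-1.15) had 13.7, 16.5 and 16.9 in wild type and 15.2, 4.97 and 4.62 in the knockout. Its first knockout array stood with the wild type, as for Col6a3. The call was lost without wild-type array 2 or 3 or knockout array 2 or 3, and with no trend in limma's variance prior. Over all alternatives the log2 change of Foxd1 ran from -1.71 to -0.85 and its limma adjusted p from 1.82e-10 to 0.101. Of 8 smooth muscle and pericyte markers, all tested, 3 fell and none rose (limma; 4 and none at an unadjusted p under 0.05), with sums of 141 to 149 and 109 to 116. They were Cspg4 (log2 change -1.12), Acta2 (-0.80) and Myh11 (-0.34). No gene of either list lay below the limit in both genotypes. Of 9 endothelial markers 7 were tested, of which 4 fell and 1 rose, with sums of 73.6 to 75.6 and 72.4 to 73.4. Pecam1 (log2 change -1.32), Emcn (-0.82) and Tek (-0.72) fell the most, although Emcn turned to 0.20 with its probes averaged (adjusted p = 0.398). Kdr was the one that rose, and Cdh5 lay below the limit in both genotypes. Of 10 markers of mesothelium and coelomic epithelium, Wt1 among them, 8 were tested, of which 4 fell and none rose (limma; 4 and 1 at an unadjusted p under 0.05), with sums of 92.9 to 99.6 and 53.9 to 54.6 and with Msln below the limit in both genotypes. Muc16, at least 8.54-fold lower against the brightness limit, Aldh1a1 (log2 change -3.00) and Wt1 (-1.52) fell the most. The knockout mean of Muc16 lay below that limit and it passed the filter through its wild-type values, so it could not have been called higher. Most of the drop in the sum came from Wt1, the deleted gene (means 42.3 and 14.7), and Aldh1a1 (17.1 and 2.13). The 4 tested markers that did not pass had log2 changes above 0: Lrrn4 (0.43), Bnc1 (0.20), Upk1b (0.13) and Krt18 (0.07). Krt8, which fell, and Krt18 are also in the notochord list. The part of these cells in the lower Col1a1, Col1a2 and type IV signal was not tested.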

How the data were processed

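Deposited intensities of 6 CodeLink arrays were used, 1 column per array, on a linear scale with medians of 0.956 to 0.966. What software, background correction and spot flags the authors applied is not given here. Each array had 190 to 212 empty cells and 153 to 246 values at or below 0, and 20077 to 20099 values in all. The number of arrays limits the precision. Values under an intensity of 0.0811 (5th percentile of positive values) were set to it, log2 was taken, and no further scaling was applied, since array medians differed by 0.0153 (limit 0.1). Probes with 2 or more values per genotype and a mean above the 25th percentile of probe means (intensity 0.217, the brightness limit) were tested with limma 3.58.1 in R 4.3.3 (lmFit, eBayes with trend, genotype as the only term, two-sided), with Benjamini-Hochberg adjustment over all 15062. The fit was tested on simulated data. Means ± SD are of intensities before the floor, log2 changes carry SE, and a fold against a group below the limit is a lower bound. A gene is represented by its brighter probe unless stated. Probe names came from the annotation of the platform in GEO, some of it outdated (1 symbol for 15120, several for 38, none for 5131), and all 43 collagen probes matched RefSeq. Members, lists (4 of the pathway, 8 of markers) and rules were chosen with earlier results of these data known. Every collagen gene is described, with all 6 values for those past the threshold and the 3 brightest of each class, as are the largest changes past the threshold of each list (up to 4 per pathway list and 3 per marker list). Protein sequences were not used here. The design asked for their repeat structure, which was therefore not analysed. Across array pairs r was 0.986 within wild type, 0.974 within the knockout and 0.965 to 0.972 between genotypes. Alternatives, 15 in all, changed scaling, floor, filter, variance prior, replicate block, replicates and probes per gene. Their use on single genes of the pathway and marker lists was added after seeing the data. Counts and sums of the marker lists were not repeated under them.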

Additional observations from a re-analysis of the deposited data

How the results depend on the processing

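Of the 18 collagen probes called, 15 kept their call in every alternative in which they were tested, and none changed direction. The exceptions were Col7a1, Col9a2 and Col27a1. Of 20 uncalled probes, 8 gained a call somewhere and 9 changed sign. Quantile normalization gave 4 lower and 2 higher fibrillar genes, 2 lower processing genes and 3 higher modification genes, and cyclic loess gave the same numbers. The receptor list had 0 higher genes after cyclic loess, with the filter at the median probe and with the replicate block. Leaving out 1 array at a time gave 0 to 1 higher basement membrane genes (Col18a1 without knockout array 1, Col4a4 without knockout array 2), 0 to 2 higher processing genes and 0 to 1 higher receptors. The cause of these shifts was not tested.

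Some uncalled probes changed sign. After quantile normalization the values were -0.054 for Col11a1, 0.011 for Col17a1, -0.056 for Col18a1 and -0.042 for the ratio of Col11a1 over Col11a2. After cyclic loess they were -0.031 for Col11a1, -0.030 for Col18a1 and -0.033 for the dimmer Col4a4 probe. With probes averaged they were 0.076 for Col6a4 and 0.26 for Col5a1, the latter then called higher (limma adjusted p = 0.0397). The vessel marker Emcn, called lower on its brighter probe, turned to 0.20. Leaving out 1 array at a time moved Col17a1 from -0.066 to 0.0025, Col5a2 from -0.099 to 0.079, Col8a1 from -0.49 to 0.036, Col11a2 from -0.11 to 0.078 and the dimmer Col4a4 probe from -0.077 to 0.16.

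Genotypes share replicate numbers, but deviations of same-numbered arrays from their group means correlated at only 0.00049, -0.021 and -0.0057 over 15019 probes, so the numbers were not taken as pairs. With the replicate block 8 collagen genes were higher and 8 lower, as without it, though Col6a3 gained a call and Col7a1 lost it, and 3453 probes were higher and 2566 lower over the array. Dim chains such as Col15a1 and Col4a3 carry no detection flag, so their absence cannot be read from these values.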
